A study of Homo sapiens with 6 samples.

Results

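UCHL5 and RPAP3 were followed on 6 one-color Agilent arrays of PC3 cells, an established human prostate cancer cell line, after knockdown of clusterin (CLU). The arrays carry 175287 different probes, and the files pair 50 of them with a RefSeq mRNA accession. The probes of UCHL5 (A_23_P148798, NM_015984) and RPAP3 (A_23_P2683, NM_024604) are 2 of these 50. They were chosen by probe name with the siCLU and siSCR values already known, so the differences between groups are given as a description, without a test.

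The siSCR group is PC3 cells transfected with scramble siRNA and the siCLU group is PC3 cells transfected with siRNA against clusterin mRNA, with 3 biological replicates each and no further agent in either. Each array received cyanine-3-labeled cRNA from 100 ng of total RNA, and the sample labels name PC3 as the cell line and prostate tumor as the origin. Of the 3 slides, the first carried only siSCR replicate 1 and the last only siCLU replicates 1 and 2. Slide 2 carried both groups, with siCLU replicate 3 beside siSCR replicates 2 and 3. None of the 50 named probes is for CLU, and the knockdown was not checked here on its mRNA. Since RNA was measured in bulk, fewer cells with the transcript and less transcript per cell cannot be told apart.

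The proteasome degrades proteins tagged with ubiquitin. UCHL5, also called UCH37, is a deubiquitinase of the UCH family that docks on its regulatory particle through ADRM1 and removes ubiquitin from substrates, and it is also a subunit of the INO80 chromatin remodeler. RPAP3 belongs to R2TP, a co-chaperone complex with PIH1D1 and the ATPases RUVBL1 and RUVBL2. It binds HSP90 and HSP70 through its TPR domains while RNA polymerases, small nucleolar ribonucleoproteins and large kinases such as mTOR are assembled. Clusterin is a chaperone too, mainly a secreted one, that holds misfolded proteins in solution. The arrays measured mRNA only, with no readout of proteasome or HSP90 activity or of protein binding.

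The other genes of these complexes could not be followed by name. Named probes covered 0 of 44 proteasome genes, 0 of 3 other UCH family deubiquitinases, 0 of 14 INO80 genes, 0 of 11 R2TP and PAQosome genes (the PAQosome is R2TP with its prefoldin-like module), and 0 of 17 genes of HSP90 and its co-chaperones. UCHL5 and RPAP3 were thus the only genes of this kind with a name, and the probes listed by identifier alone were not assigned to any of these lists.

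The start regions of both genes are shown because the 2 transcripts were higher in the same group, although the arrays measured neither transcription nor factor binding. That direction was common: 60.2% of the probes well above background on 3 or more arrays were higher in siCLU. The sequences are from RefSeq on GRCh38.p14, written on the strand of the gene, which is minus for both. RPAP3 has 1 listed start, and the 250 bases before it, with 52.8% G and C, are shown with matches to the motifs searched in capitals. UCHL5 has 3 listed starts. Its 2 GC box matches, at chr1:193059568-193059597 and chr1:193059515-193059544, are shown with their flanks, capitals marking the letters of the motif or of its reverse complement, beside the GC box of RPAP3 at chr12:47706065-47706094.
RPAP3, chr12:47706031-47706280: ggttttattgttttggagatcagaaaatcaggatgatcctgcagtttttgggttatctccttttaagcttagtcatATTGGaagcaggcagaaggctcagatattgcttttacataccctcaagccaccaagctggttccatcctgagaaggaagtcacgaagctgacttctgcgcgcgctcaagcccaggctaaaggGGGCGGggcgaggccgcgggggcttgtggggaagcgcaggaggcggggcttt
UCHL5 GC box, upstream match: tttgccccgcctCCGCCCcagaggggcgag
UCHL5 GC box, downstream match: cgctgtgaatcaCCGCCCtttcttctcagg
RPAP3 GC box: ccaggctaaaggGGGCGGggcgaggccgcg

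The motifs searched, on both strands, were 2 basal elements, the CCAAT box (CCAAT) and the GC box (GGGCGG), and the heat shock element core (GAANNTTC), the AP-1 site (TGAGTCA), the cyclic AMP response element (TGACGTCA) and the E-box (CACGTG). The GC box was present in 2 of 3 UCHL5 windows, which overlap each other, and in the RPAP3 window, and in 45% of all 35116 listed windows of 300 bases. Which of the 3 starts the transcript of the UCHL5 probe uses is not given in the sources used here, so its window may be the one without a GC box. The CCAAT box was found for RPAP3 alone (34.6% of all windows hold it), and so was the AP-1 site, which lies just past the start and outside the bases shown (4.95% of all windows). The heat shock element core, which 6.77% of windows hold, was found in none of the windows of either gene. A match describes the letters in these windows and says nothing of a factor.

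Each probe was printed many times on every array, which allowed the signal to be read at separate places on the glass. UCHL5 had 16 spots and RPAP3 had 15, as part of 50 probes that were printed 15 or 16 times, while the remaining probes had 1 spot each. One UCHL5 spot carries only the probe identifier and no accession. All 31 spots were well above background on all 6 arrays and none was saturated. The software marked 2 UCHL5 spots on siSCR replicate 2 as outliers, and these were left out, so 14 spots entered the value of that array.

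In processed signal, a linear intensity corrected for background but not yet normalized between arrays, the UCHL5 spots of siSCR replicate 1 ran from 526.6 to 575.4 with a median of 548.4. On siSCR replicate 2 they ran from 576.2 to 664.9 (median 635.5), and on siSCR replicate 3 from 866.8 to 1125 (median 977). The control arrays thus formed no single level, and replicate 3 was the brightest of them. On siCLU replicates 1, 2 and 3 the medians were 2039, 1172 and 1066, with ranges of 1961 to 2105, 1122 to 1213 and 900.4 to 1160. The medians of the 3 siCLU arrays were all above those of the 3 siSCR arrays, but the spots of siSCR replicate 3 overlapped those of siCLU replicate 3 over most of their range and reached the lowest of siCLU replicate 2.

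By spot medians, RPAP3 showed the same order of arrays. The siSCR arrays had spot medians of 443, 579.8 and 925.1 in replicate order, with ranges of 405.6 to 519.2, 541.9 to 665.3 and 889.9 to 1182. The siCLU arrays had medians of 1460, 1053 and 960, with ranges of 1372 to 1582, 949.8 to 1119 and 862.3 to 1058. In both genes siSCR replicate 1 was lowest and siCLU replicate 1 highest. The medians of siSCR replicate 3 and siCLU replicate 3, which shared slide 2, lay closest across the groups, and the RPAP3 spots of siSCR replicate 3 overlapped those of siCLU replicates 2 and 3. By the mean over spots, the summary used below, siSCR replicate 3 was at 969.8 and siCLU replicate 3 at 963.2, so the groups of RPAP3 overlapped before normalization, while those of UCHL5 did not (976.8 against 1063).

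**Figure D1:**
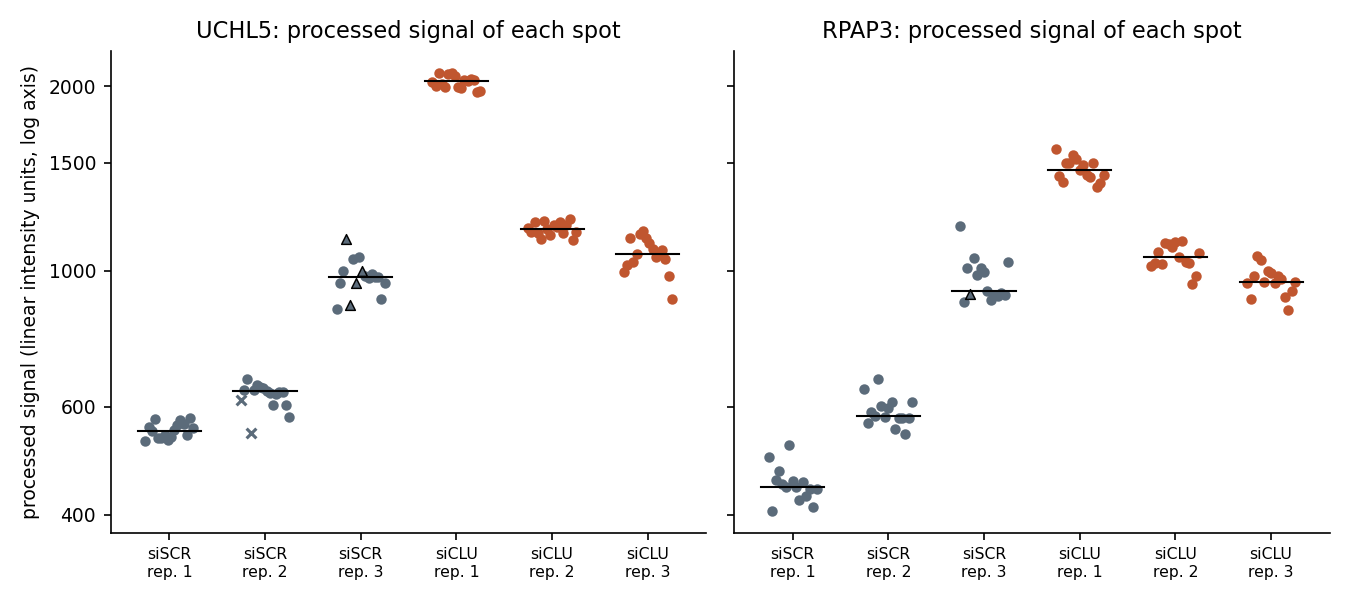
Processed signal of every UCHL5 spot (left, 16 per array) and RPAP3 spot (right, 15 per array) on a log axis, with the 3 siSCR arrays in gray and the 3 siCLU arrays in orange. Bars are medians of the spots used, crosses are the 2 spots marked as outliers and triangles are spots in the bright region of siSCR replicate 3; the highest array is siCLU replicate 1 in both panels, with medians of 2039 and 1460.

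The signal stood well clear of the glass. The raw spot signal was 18.9 to 67.8 times the local background for UCHL5 and 14 to 48.4 times for RPAP3 (median over spots, per array). The spots of one array gave similar values. Their coefficient of variation was between 2.29% and 6.61% for UCHL5 and between 4.15% and 8.21% for RPAP3, below or close to the error of about 10% that the software itself assigned to each spot. On the log2 normalized scale, described next, the SD between UCHL5 spots was 0.035 to 0.097 per array and that between RPAP3 spots 0.060 to 0.116. The median SD was 0.057 to 0.110 per array over the 42 repeated probes that passed the background call on every array. Spots of one array share their RNA, so this spread is technical and the arrays are the replicates.

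Quantile normalization, which gives all arrays one distribution of values and was also the study's choice, drew the arrays closer together. It raised the UCHL5 value by 0.34 on siSCR replicate 1 and by 0.15 on siSCR replicate 2, and lowered it by 0.40 on siCLU replicate 1 (log2 scale, with shifts of -0.40 to 0.35 for RPAP3). After it, the siSCR arrays read 9.44, 9.45 and 9.86 for UCHL5 in replicate order, and the siCLU arrays 10.59, 10.08 and 10.15. RPAP3 was 9.16, 9.35 and 9.85 on the siSCR arrays and 10.11, 9.93 and 10.01 on the siCLU arrays. After normalization the groups did not overlap for either gene. For RPAP3 this followed shifts of -0.07 on siSCR replicate 3 and 0.10 on siCLU replicate 3. The lowest siCLU array was above the highest siSCR array by 0.23 for UCHL5 and by 0.09 for RPAP3.

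**Figure D2:**
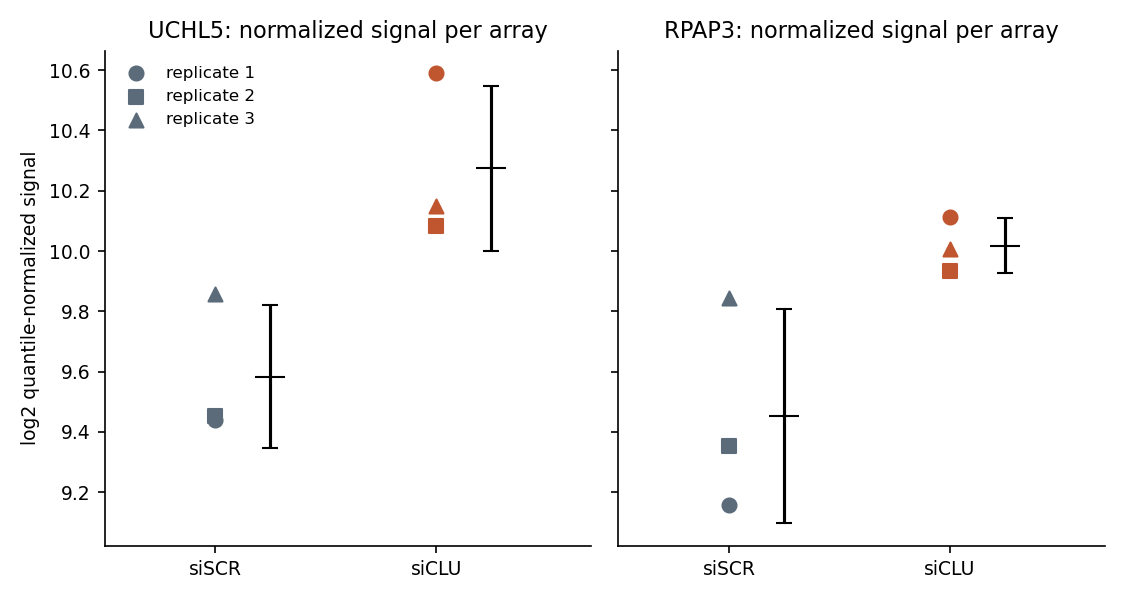
Log2 quantile-normalized signal of UCHL5 (left) and RPAP3 (right) on each array, with the replicate number as the symbol and the mean ± SD of the 3 arrays beside each group. The siSCR mean is 9.58 for UCHL5 and 9.45 for RPAP3, the siCLU mean is 10.27 and 10.02, and siSCR replicate 3 is the control nearest to the siCLU arrays in both panels.

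The deubiquitinase UCHL5 was 10.27 ± 0.28 in siCLU and 9.58 ± 0.24 in siSCR (log2, SD, n = 3 arrays each). The log2 difference was 0.69 with a standard error of 0.21 from limma, which is 1.61-fold higher in siCLU. The HSP90 co-chaperone RPAP3 was 10.02 ± 0.09 in siCLU and 9.45 ± 0.36 in siSCR (log2, SD, n = 3 arrays each), a log2 difference of 0.57 (standard error 0.21) and 1.48-fold higher in siCLU. Over the 9 pairs of a siCLU and a siSCR array, the difference ranged from 0.23 to 1.15 for UCHL5 and from 0.09 to 0.96 for RPAP3.

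The 2 genes differed in where their spread lay. UCHL5 spread over a log2 range of 0.50 among the siCLU arrays and 0.42 among the siSCR arrays, while RPAP3 spread over 0.18 and 0.69. Against the 77952 probes that the software called above background on every array, the SD of UCHL5 in siCLU was larger than that of 72.5% of probes, and that of RPAP3 was larger than that of 18.8%. Among siSCR arrays the shares were 53.2% for UCHL5 and 78.5% for RPAP3. With 3 arrays in a group, each such SD is itself imprecise, and the difference in spread was not tested.

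Many probes showed differences of this kind. Over the 130717 probes kept, those that passed the software's background call on 3 or more arrays, all siCLU arrays lay above all siSCR arrays for 19.1%, which is the background for the 2 of 2 members that did so. A log2 difference at least as large as that of UCHL5 was seen for 15.5% of probes and one at least as large as that of RPAP3 for 20.1%. The fit by limma with Benjamini-Hochberg adjustment (adjusted p of 0.05 or below and a fold change of at least 1.5) called 1.62% of probes (0.952% as higher in siCLU) and 0 of the 2 members, with 21369 probes at an unadjusted p of 0.05 and the same fold. Restricted to the 77952 probes that passed this call on every array, the fit called 10.5% (4.94% as higher in siCLU) and again 0 of the 2 members. Since the members were picked with this contrast in view, nothing is read from these counts.

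The median log2 difference depended on the set of probes. Over the kept probes it was 0.12, and relative to it UCHL5 was higher by 0.57 and RPAP3 by 0.45. Over the 77952 probes above background on every array it was 0.02, and relative to that UCHL5 was higher by 0.67 and RPAP3 by 0.54. Over all 175287 probes, without the filter, it was also 0.02. Without normalization the median over all kept probes was 0.33, and the differences were 0.97 for UCHL5 and 0.85 for RPAP3, or 0.64 and 0.52 relative to that median.

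Reading the same difference at each printed position gave a narrow range. Every one of the 16 UCHL5 positions was higher in siCLU, with log2 differences of 0.47 to 0.76 (median 0.70), and every one of the 15 RPAP3 positions was higher, with 0.40 to 0.69 (median 0.58). At 15 of 16 UCHL5 positions and 14 of 15 RPAP3 positions all siCLU arrays were above all siSCR arrays. Among the 15 is the UCHL5 spot at row 39, column 117, left out as an outlier on siSCR replicate 2 and so set against 2 siSCR arrays. The exceptions were the UCHL5 spot at row 191, column 166, and the RPAP3 spot at row 8, column 90, near the edge of the grid. The UCHL5 spot at row 191 was also marked as an outlier on siSCR replicate 2 (543.2, left out). Its difference of 0.47, the lowest, thus rests on 2 siSCR arrays, and on siSCR replicate 3 it lies in the bright region described below. On siSCR replicate 3 these 2 spots gave 1125 and 1182, the highest signal of their gene on any siSCR array. The positions share the RNA of each array and are not independent measurements of the groups.

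RPAP3 differed slightly between parts of the grid, in the same direction on all arrays, and the cause was not tested. Its 8 spots among the lower row numbers of the grid (upper part) were brighter than its 7 spots among the higher row numbers (lower part) on all 6 arrays, by 0.05 to 0.11 on the log2 scale. UCHL5 spots showed no such common sign, with differences of -0.04 to 0.08. The group difference was nearly the same in both parts, at 0.70 and 0.68 for UCHL5 and 0.55 and 0.58 for RPAP3 (upper, then lower). The UCHL5 spot without an accession read 559.5, 604.2 and 972 on the siSCR arrays and 2045, 1201 and 1052 on the siCLU arrays, within the range of the other spots, and the log2 difference from the spots with the accession alone was 0.69.

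The array of siSCR replicate 3 stood apart from the other 5. On it 45.9% of all spots were well above background, against 73.5% to 77.2% elsewhere, and the additive error estimated by the software was 28.8 in intensity units, against 2.03 to 2.65. A bright region covered 23 of 200 equal tiles, each with a 10th percentile of raw signal more than 1.5 times that of the median tile, and no tile of another array passed this mark. In this region lay 4 of the 16 UCHL5 spots and 1 of the 15 RPAP3 spots. The 4 UCHL5 spots averaged 9.87 on the log2 scale against 9.85 for the 12 spots outside, and the RPAP3 spot was at 9.77 against 9.85 for the 14 outside. Without the region the log2 differences between groups were 0.69 and 0.56. The level of siSCR replicate 3 was thus as high in its other spots, for both genes.

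**Figure D3:**
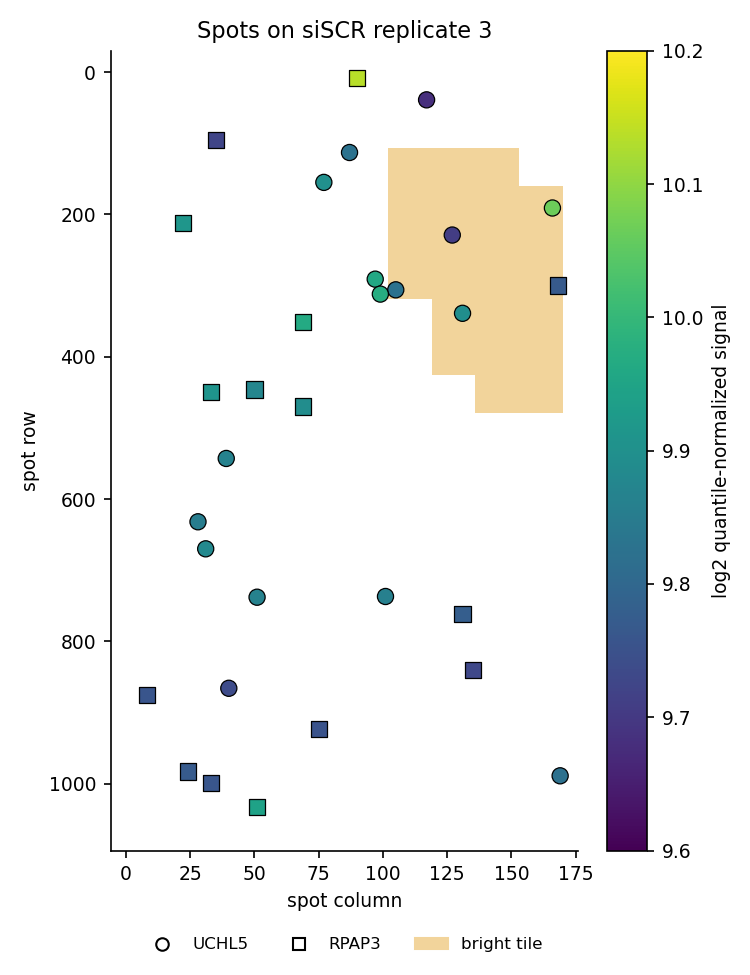
Position of the UCHL5 spots (circles) and RPAP3 spots (squares) on the array of siSCR replicate 3, by spot row and column, colored by log2 normalized signal, with the bright tiles shaded. The 4 UCHL5 spots inside the shaded tiles run from 9.71 to 10.06 with a mean of 9.87, against a mean of 9.85 for the 12 outside. The brightest UCHL5 spot, at row 191, lies inside them and the brightest RPAP3 spot, at row 8, outside.

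With siSCR replicate 3 left out, the groups lay further apart, with log2 differences of 0.83 for UCHL5 and 0.76 for RPAP3. Restricted to the 77952 probes above background on every array, the fit called 8167 probes with all arrays and 1061 to 5694 with 1 array left out. The highest of these counts, 5694 of 77952, was without siSCR replicate 3, and only there was a member, RPAP3, among the calls. Over the 130717 kept probes without the same array, the fit called 4237 probes and 0 of the 2 members. Since the members were picked in view of this contrast, the call of RPAP3 is no test of it. Leaving out any other array gave 0.53 to 0.79 for UCHL5 and 0.42 to 0.61 for RPAP3. The lowest of these were without siCLU replicate 1 for UCHL5 and without siSCR replicate 1 for RPAP3. Within slide 2, where 1 siCLU array can be set against 2 siSCR arrays, the differences were smaller, 0.49 for UCHL5 and 0.41 for RPAP3. There siCLU replicate 3 was above siSCR replicate 2 by 0.70 for UCHL5 and 0.65 for RPAP3, and above siSCR replicate 3 by 0.29 and 0.16. The array of siSCR replicate 1 and those of siCLU replicates 1 and 2 were each on slides with 1 group, so there the slide and the siRNA cannot be told apart.

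**Figure D4:**
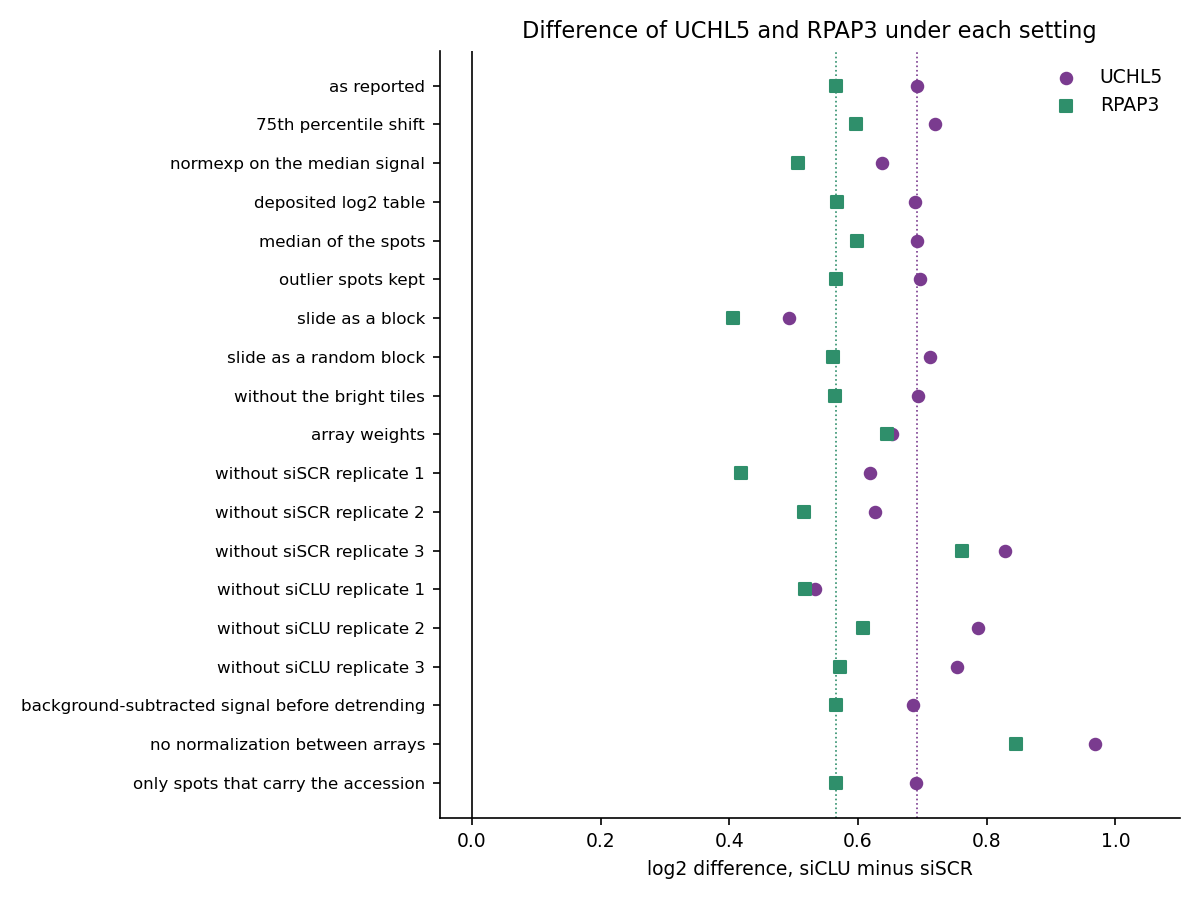
Log2 difference between siCLU and siSCR for UCHL5 (circles) and RPAP3 (squares) as reported (first row, dotted lines) and with the change in processing named in each further row; normexp on the median signal and the deposited table each change several steps at once. All points lie above 0, from 0.41 with slide as a block to 0.85 without normalization for RPAP3 and from 0.49 to 0.97 for UCHL5.

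Among the 43 named genes with a kept probe, UCHL5 had rank 6 and RPAP3 rank 8 by log2 difference, in a list that ran from 1.52 down to -1.82 with a median of 0.11. In this list 26 genes were higher and 17 lower in siCLU, and the groups did not overlap for 8 of the higher and 8 of the lower ones. Over all 130717 kept probes, 60.2% were higher in siCLU. All siCLU arrays lay above all siSCR arrays for 19.1% of the kept probes and below them for 13.6%, so nothing is read from the counts of named genes. UCHL5 and RPAP3 were neighbors in rank with WRN (0.67), a RecQ helicase, between them, and the step from UCHL5 to RPAP3 was less than the standard error of either.

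**Figure D5:**
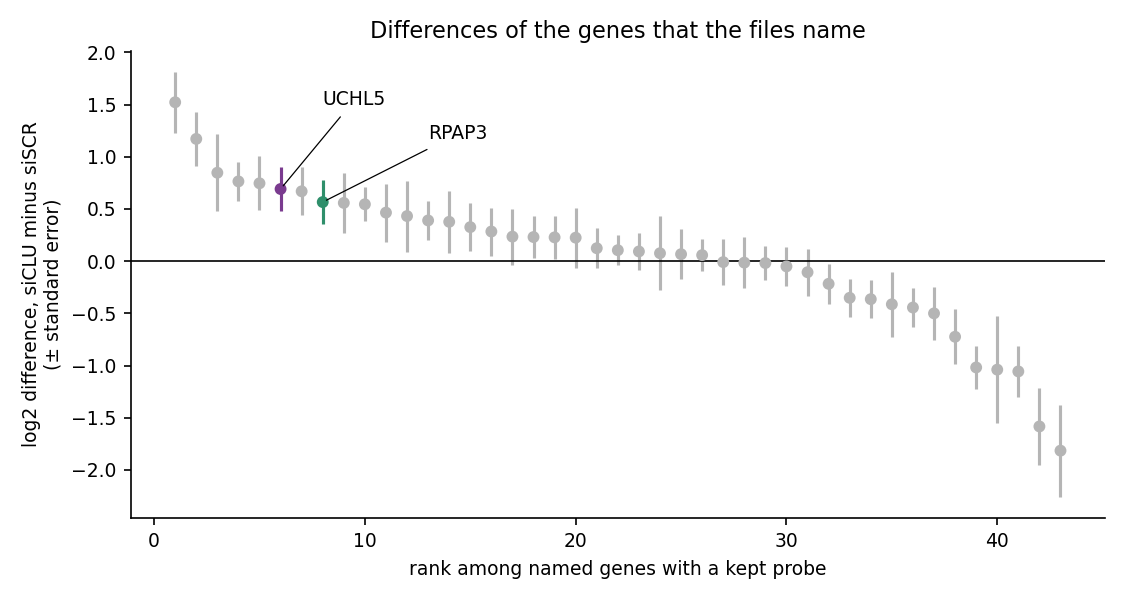
Log2 difference between siCLU and siSCR, with the standard error from limma, for the 43 named genes with a kept probe, ordered by difference. UCHL5 at 0.69 and RPAP3 at 0.57 stand among the 10 highest, below a highest value of 1.52.

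Likeness over the 6 arrays was measured as the root mean square difference of log2 values after subtracting each gene's mean, over the other 42 named genes. The profile of UCHL5 was most like those of WDHD1, a replication and chromatin factor (0.08), WRN (0.13) and ATAD2, an AAA ATPase that binds acetylated histones (0.15). That of RPAP3 was most like those of WRN (0.14), DNTTIP2 (0.14), a nucleolar protein, and UCHL5 itself (0.15). In the order from UCHL5, RPAP3 had rank 4. The median distance was 0.39 from UCHL5 and 0.34 from RPAP3, and the largest was 1.42 and 1.33. The distance includes the difference between siCLU and siSCR, the contrast in view when the members were chosen. The arrays share their normalization and siSCR replicate 3, which was high among the controls for both members, and the ranking is a description.

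The deposited log2 table, which the authors normalized themselves, held the same order. For UCHL5 the siSCR arrays read 9.24, 9.25 and 9.66 in replicate order and the siCLU arrays 10.38, 9.88 and 9.95. RPAP3 was 8.95, 9.15 and 9.65 on the siSCR arrays and 9.91, 9.73 and 9.81 on the siCLU arrays. The log2 differences were 0.69 and 0.57, and the groups did not overlap in this table either.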

How the data were processed

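RNA of 3 siSCR and 3 siCLU samples was measured on one-color arrays. Groups and replicate numbers came from the sample titles and slides from the array headers. The authors scanned the arrays and ran Feature Extraction 10.5.1.1 (per the file headers), and deposited for each spot a linear intensity corrected for background and for trends over the array, with raw signals and flags. The authors also deposited a log2 table, which their methods describe as quantile normalized with GeneSpring. Its columns all belong to the 6 arrays.

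Signals below 1 were to be set to 1 (the lowest was 1.74). After quantile normalization of the non-control log2 values, outlier spots were removed and each probe's spots averaged. A probe was kept if most of its spots were well above background on at least 3 arrays, which left 130717 probes. A single spot marked as an outlier leaves its probe without a value on that array, and such probes were fitted on the other arrays. Groups were compared with limma 3.58.1 in R 4.3.3 on all kept probes. The same fit was also run on data simulated from the means and SDs of these probes. The 50 accessions were matched without version numbers to RefSeq genes of GRCh38.p14, while the arrays were designed on hg19, and all 50 matched. Quantile normalization assumes that most probes do not differ, and it drew the arrays together here. The alternatives cover normalization, background, filter, spots, slide, pairing, prior, test, thresholds, bright tiles, weights and each array left out. The number of arrays limits the precision. Figures were drawn with matplotlib 3.10.9.

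Named genes were to be UCHL5 and RPAP3, genes of their complexes where a probe carries the accession, and the 3 named genes nearest to each by root mean square difference. The members, gene lists and motifs were chosen with earlier results of these data known.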

Additional observations from a re-analysis of the deposited data

How the results depend on the processing

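Both genes were higher in siCLU under all alternatives that could move their differences, with log2 differences of 0.49 to 0.97 for UCHL5 and 0.41 to 0.85 for RPAP3. The upper ends, 0.97 and 0.85, came without normalization between arrays, an alternative chosen after seeing the data. The lower ends came with slide as a block, which gave the same values as slide 2 alone. The filter on dim probes, the prior, the t-test, the thresholds and the replicate block leave the differences unchanged by construction. The number of probes called, 2112 as reported (1245 higher and 867 lower), moved far more, and the cause was not tested. It was 5319 with a shift of each array's 75th percentile, 9312 with normexp on the median signal (offset 50, which also replaces the detrended processed signal), 8167 over probes above background on every array, 4478 with slide as a random block, 8914 with a trended and robust prior and 11402 with array weights. With alternatives added after seeing the data it was 4011 from the signal before detrending and 3787 without normalization (2702 higher and 1085 lower). The methods' t-test with Benjamini-Hochberg adjustment called 2 probes and an unadjusted p in limma 21369. It was 0 without the filter on dim probes (22748 at an unadjusted p of 0.05 in limma) and 0 with slide as a block (6972). With each array left out in turn the count ran from 0 to 4237, the highest without siSCR replicate 3 and 0 in the other cases (16536 to 21900 at an unadjusted p in limma). For arrays with equal replicate numbers, deviations from the group means correlated at -0.04, -0.24 and 0.16 (replicates 1, 2 and 3). With 3 arrays per group, these values cannot decide whether the numbers pair the samples. A replicate block brought the count to 0 (20040 at an unadjusted p in limma). Each replicate number occurs in both groups, so this block leaves the differences of UCHL5 and RPAP3 at 0.69 and 0.57 by construction. Over probes above background on every array, the count with 1 array left out ran from 1061 to 5694. All spots of both genes were well above background.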
